A study of Mus musculus with 6 samples.

Results

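The genes described here are the zinc-buffering metallothioneins Mt1 and Mt2, the zinc-sensing transcription factor gene Mtf1, the zinc and manganese exporters Slc30a1 and Slc30a10, and the intestinal zinc importers Slc39a4 and Slc39a5. These 7 genes, of 38561 listed, were chosen by name, with their difference between the genotypes already known from these counts, so the values of that contrast are given as a description, and their edgeR values show their place in the fit over all genes, not independent evidence. RNA was taken from scraped small intestinal mucosa of C57BL/6J mice aged 8 to 12 weeks and of both sexes, and 3 pools, each made from 3 mice by the labels, were sequenced per genotype after oligo(dT) selection. The Rbm47_IKO mice lacked floxed Rbm47 in the intestinal epithelium through a constitutive Cre transgene driven by the villin promoter. The controls were labelled wt and, by the study's methods, were floxed Rbm47 fl/fl mice without Cre. All mice were fed chow, and the methods give BrdU shortly before harvest.

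Each pool held 31560320 to 38951830 counted reads. The targeted gene went against its label. Rbm47 had 602.7, 625 and 619.8 normalized CPM (reads scaled to a common library size with edgeR's TMM factors) in the pools labelled Rbm47-IKO, and 459.8, 449.9 and 472 in the wt pools (log2 fold change 0.42, adjusted p = 0.0751 with edgeR and 0.00105 with DESeq2). The labels do not say which exons were deleted, and a gene count can include transcripts without them. The groups are therefore called the libraries or pools labelled Rbm47-IKO, and every direction below rests on that label. Enterocyte markers had a summed level of 51049 to 57179 CPM in the labelled Rbm47-IKO pools and of 52054 to 54624 CPM in wt. The 10 genes of that sum did not move alike, from -1.01 for Apoa4 to 0.52 for Anpep on the log2 scale, with 0 called by edgeR, 3 called by DESeq2 (against 7.57% of all genes tested) and 4 at an unadjusted edgeR p under 0.05 (against 16.8% of all genes tested). The 6 smooth muscle markers were uneven within both groups, at 361, 586 and 3302 CPM in labelled Rbm47-IKO pools 1 to 3 and at 90.7, 2803 and 313 CPM in wt pools 1 to 3. The sexes were not balanced between the genotypes. Xist had 75.6, 258 and 40.3 CPM in labelled Rbm47-IKO pools 1 to 3, and 1.09, 150.03 and 0.686 CPM in wt pools 1 to 3. The sum of 4 Y-linked genes was 53.04 to 143.7 CPM in the former, and 215, 87.9 and 220.3 CPM in the latter. Among the other cell type markers, 9 of 9 enteroendocrine genes lay below 0 on the log2 scale and Ghrl passed (-1.44, adjusted p = 0.0393, edgeR), but in 0 of the 6 fits that dropped a pool (0.0652 to 0.212). DESeq2 called Cck, Gip and Ghrl, and 6 of the 9 had an unadjusted p under 0.05. All 6 B and plasma cell genes lay below 0 with 0 called by edgeR or DESeq2 or at an unadjusted p under 0.05. Of 5 genes of the distal small intestine, 4 lay above 0, with 0 called by edgeR, 3 at an unadjusted p under 0.05 and 2 called by DESeq2, Slc51a and Slc51b. For the proximal small intestine, 4 of 5 genes also lay above 0, with 0 called by edgeR or DESeq2 and 1 at an unadjusted p under 0.05. Of 7 goblet cell genes, 6 lay above 0, with 0 called by edgeR, 2 at an unadjusted p under 0.05 and 2 called by DESeq2, Clca1 and Fcgbp. Their summed level was 22137 to 25614 CPM in the labelled Rbm47-IKO pools and 16586 to 19445 CPM in wt. The colon gene Hoxb13 had 90, 134 and 169 reads in labelled Rbm47-IKO pools 1 to 3 and 0, 21 and 11 in wt pools 1 to 3, and DESeq2 called it while edgeR did not (adjusted p = 0.0708). The part of sex and of these markers in the results below was not tested.

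Metallothioneins are small cytosolic proteins that hold zinc and copper through clusters of cysteines, and they buffer the free metal that an enterocyte takes up. When free zinc rises, the zinc finger protein MTF1 binds metal response elements (MREs) in the promoters of Mt1, Mt2 and Slc30a1, and transcription of these genes rises. Glucocorticoids, acute phase cytokines and oxidative stress are other known inducers of Mt1 and Mt2. Zinc enters the enterocyte from the lumen mainly through ZIP4 (Slc39a4) and leaves it toward the blood through ZnT1 (Slc30a1).

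The coding sequences of Mt1 and Mt2 are shown because their cysteine codons are the metal-binding part and because the pair is similar enough to raise the question of shared reads. Both lie on the plus strand of chromosome 8 in GRCm38, with Mt2 (ENSMUSG00000031762) counted from 94172618 to 94173567 and Mt1 (ENSMUSG00000031765) from 94179089 to 94180325. The sequences are from 1 GENCODE M21 transcript of each gene, with 3 exons in each, read 5′ to 3′ from start to stop codon with the cysteine codons in capitals:
Mt1: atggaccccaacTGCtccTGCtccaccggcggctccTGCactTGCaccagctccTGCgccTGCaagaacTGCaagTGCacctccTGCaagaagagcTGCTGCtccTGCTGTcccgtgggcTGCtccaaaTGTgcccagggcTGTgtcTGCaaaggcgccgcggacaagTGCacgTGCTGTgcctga
Mt2: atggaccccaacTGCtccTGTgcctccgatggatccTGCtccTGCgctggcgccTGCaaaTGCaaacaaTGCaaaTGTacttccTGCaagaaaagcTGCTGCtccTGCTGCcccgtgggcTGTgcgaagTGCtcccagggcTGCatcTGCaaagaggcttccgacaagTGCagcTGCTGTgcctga

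Of the 61 codons before the stop, 20 encode cysteine in each gene (32.8%), and all 20 stand at the same positions in both. The coding sequences were identical at 148 of 186 bases (79.6%). The longest run shared by both transcripts was 20 bases. A read longer than that run cannot match both transcripts without a mismatch, although the read length and the handling of multiple matches were not given in the sources used here.

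The RefSeq windows from 250 bases before to 50 bases after the annotated start site were searched for the MRE core on both strands. The core was spelled TGCACNC or TGCGCNC. The windows of Mt1, Mt2 and Slc30a1 are shown because these genes are the best known MTF1 targets. They are chr8:94178839-94179138 for Mt1, chr8:94172368-94172667 for Mt2 and chr1:191906531-191906830 for Slc30a1, all on the plus strand of GRCm38.p6, with the cores in capitals on whichever strand they were found:
Mt1: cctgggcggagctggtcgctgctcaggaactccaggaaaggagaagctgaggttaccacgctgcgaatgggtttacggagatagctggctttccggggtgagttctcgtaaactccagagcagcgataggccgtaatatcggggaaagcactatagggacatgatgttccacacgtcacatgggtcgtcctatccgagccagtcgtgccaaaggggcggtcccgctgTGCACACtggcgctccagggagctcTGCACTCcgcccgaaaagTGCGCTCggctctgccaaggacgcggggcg
Mt2: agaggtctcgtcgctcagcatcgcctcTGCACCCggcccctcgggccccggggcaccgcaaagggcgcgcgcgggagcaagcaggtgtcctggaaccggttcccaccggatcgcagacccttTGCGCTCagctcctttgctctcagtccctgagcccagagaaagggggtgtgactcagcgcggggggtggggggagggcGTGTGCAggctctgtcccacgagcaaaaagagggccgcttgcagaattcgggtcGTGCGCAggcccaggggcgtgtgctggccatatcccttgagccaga
Slc30a1: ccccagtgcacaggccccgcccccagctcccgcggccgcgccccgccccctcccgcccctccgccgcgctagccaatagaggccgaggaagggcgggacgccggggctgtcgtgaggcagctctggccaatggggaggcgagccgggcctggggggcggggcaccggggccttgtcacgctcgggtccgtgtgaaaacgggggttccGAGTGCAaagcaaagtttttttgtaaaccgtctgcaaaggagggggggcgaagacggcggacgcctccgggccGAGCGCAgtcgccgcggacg

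The window of Mt1 held 3 cores, at -23 to -17, at 3 to 9 and at 21 to 27 relative to the annotated start. That of Mt2 held 4, and that of Slc30a1 held 2. Among all 32851 windows in the table, 25.7% held at least 1 core, 7.11% at least 2, 1.97% at least 3 and 0.517% at least 4. Slc30a10 had 3 cores, of which 2 overlap on opposite strands, Mtf1 had none, and Slc39a5 had 1 core in 1 of its 2 windows. The core of the antioxidant response element (ARE), spelled TGACNNNGC, was present once in Mt2, once in Slc30a1 and at 2 places in the other Slc39a5 window, and in 12.4% of all windows. A match is a description of these letters and not a mapped binding site. The coding sequences start beyond the windows, at 94179311 for Mt1 and at 94172848 for Mt2, and the bases between were not searched. Whether transcription in this tissue begins at the annotated starts was not tested. Windows were found for 6 of the 7 genes, all but Slc39a4.

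**Figure D1:**
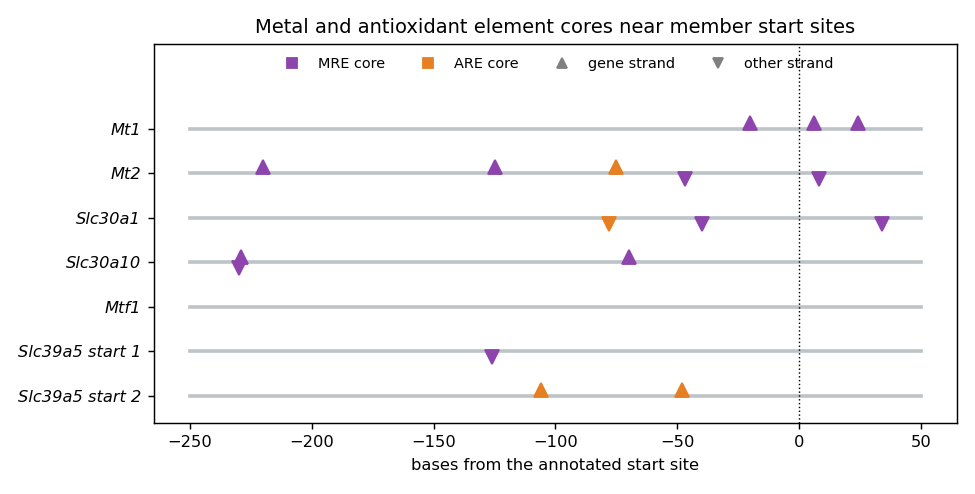
Positions of the MRE core (purple) and the ARE core (orange) in the 300-base windows of 6 genes, in bases from the annotated start site on the x axis. Upward triangles mark the gene's strand and downward triangles the other strand, and Slc39a5 has 2 annotated starts. The cores of Mt1 lie between -23 and 27, and those of Mt2 reach back to -223.

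Mt1 stood higher in all 3 pools labelled Rbm47-IKO than in any wt pool, with the doubt about that label given above. It had 841, 780.4 and 575 CPM in labelled Rbm47-IKO pools 1 to 3, from 29110, 29558 and 18760 reads. In wt pools 1 to 3 it had 179, 84.5 and 56.8 CPM, from 6091, 3206 and 2070 reads. The groups did not overlap, and the lowest labelled Rbm47-IKO pool lay well above the highest wt pool. The means were 732 ± 139.6 CPM (SD, n = 3 pools) and 107 ± 64.1 CPM (SD, n = 3), a ratio of 6.85. On the log2 scale the fold change was 2.78 (SE 0.41, adjusted p = 0.0194, edgeR), rank 17 from the top among 16425 genes tested. In bulk mucosa, a change in the number of cells that express a gene and a change in RNA per cell cannot be told apart.

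Mt2, which encodes the partner isoform, moved less evenly. It had 41.1, 122 and 69.3 CPM in labelled Rbm47-IKO pools 1 to 3 and 49.5, 11.9 and 9.96 CPM in wt pools 1 to 3. The groups overlapped, because labelled Rbm47-IKO pool 1 lay below wt pool 1. Its log2 fold change of 1.71 (standard error 0.66) did not pass (adjusted p = 0.246, edgeR). Labelled Rbm47-IKO pool 1 had the highest Mt1 and the lowest Mt2 of its group. On a per-length scale (RPKM, the normalized CPM per kilobase of exon), Mt1 exceeded Mt2 by 21.1, 6.57 and 8.53 times in labelled Rbm47-IKO pools 1 to 3 and by 3.72, 7.3 and 5.87 times in wt pools 1 to 3. Together Mt1 and Mt2 took 0.0666% to 0.0878% of all counted reads in the labelled Rbm47-IKO libraries and 0.00639% to 0.0236% in wt.

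Wt pool 1 had the highest level of Mt1 and of Mt2 among the wt libraries. It also stood apart for some of 8 glucocorticoid response genes, among them Fkbp5, a cochaperone gene induced by the glucocorticoid receptor, at 247 CPM. Fkbp5 was 31.9 and 38.7 CPM in the other wt pools and 40.8 to 54.3 CPM in the labelled Rbm47-IKO pools. Over the whole list, in which Sgk1 held 936 CPM in wt pool 1, the summed level was 1570.5 CPM in wt pool 1, 842 and 670.4 CPM in wt pools 2 and 3, and 972 to 1245 CPM in the labelled Rbm47-IKO pools. Of the 8 genes, Fkbp5, Tsc22d3, Sgk1 and Zbtb16 were highest in wt pool 1 among the 6 pools. Of the other genes, Klf9 (35.9 CPM) and Dusp1 (10.2 CPM) were lowest there among all 6 pools, and Errfi1 (109.9 CPM) was lowest there among the wt pools. Per1 (51.6 CPM) was highest there among the wt pools but not among all 6. The part of this difference in the metallothionein levels was not tested. Without wt pool 1, Mt2 passed at 2.83 on the log2 scale (adjusted p = 0.0402, edgeR), and the log2 fold change of Mt1 was 3.37 (adjusted p = 0.0148, edgeR). That was the only 1 of the 6 fits with a pool left out in which Mt2 passed. In the others the log2 fold change of Mt2 was 1.21 to 2.01 (adjusted p = 0.282 to 0.649, edgeR).

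The other metallothioneins were near silent. On chromosome 8 the order is Mt4, Mt3, Mt2 and Mt1, with 5521 bases between the counted ends of Mt2 and Mt1. Mt3, the neuronal form, had 2, 3 and 12 reads in labelled Rbm47-IKO pools 1 to 3 and 0, 9 and 0 in wt pools 1 to 3. Mt4, the form of stratified epithelium, had 1 read in labelled Rbm47-IKO pool 1 and 0 in the other pools. A count of 0 allows up to 3 reads, or 0.079 to 0.0919 CPM by pool, for counting error only.

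**Figure D2:**
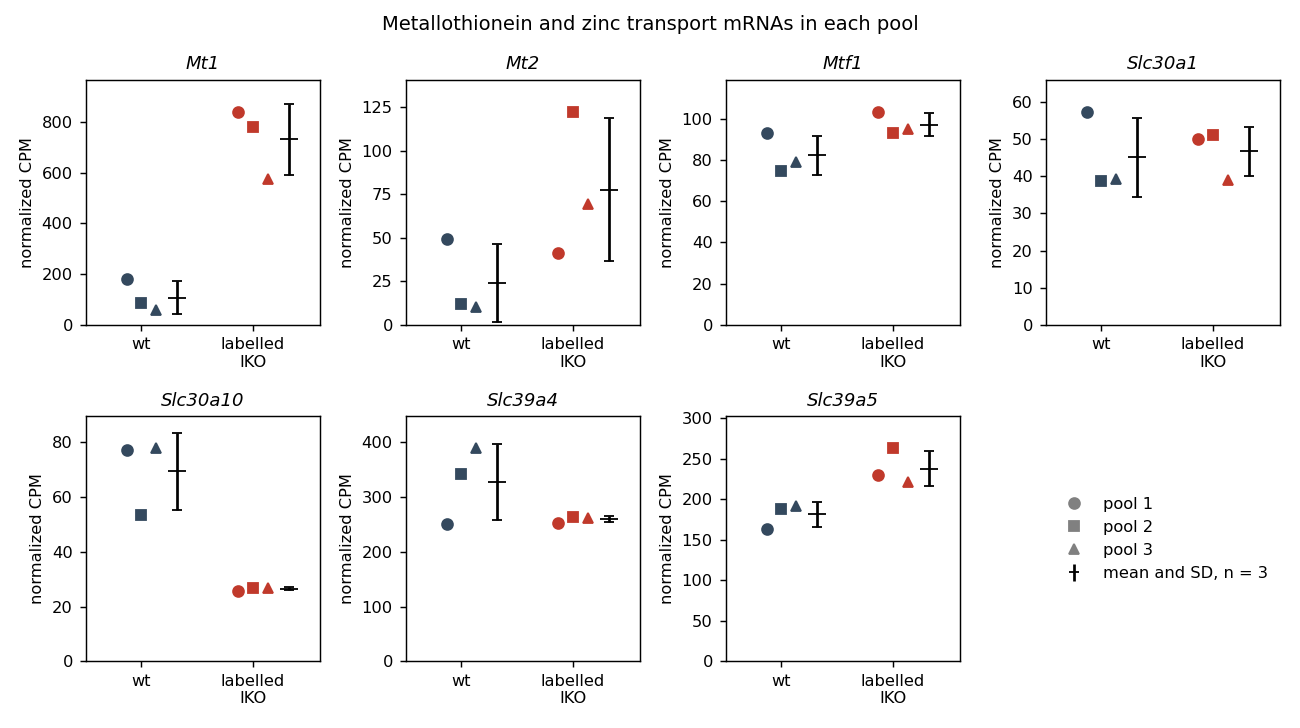
Normalized CPM of the 7 genes in each of 3 wt pools and 3 pools labelled Rbm47-IKO (points, with pool number by shape), with group mean and SD in black. Every axis starts at 0. Pools of Mt1, Mtf1, Slc30a10 and Slc39a5 do not overlap between the groups, those of Mtf1 by a small gap, and wt pool 1 is the highest wt pool for Mt1, Mt2, Mtf1 and Slc30a1.

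Mtf1 (ENSMUSG00000028890, chr4:124802104-124849800, plus strand) encodes the zinc sensor that drives Mt1, Mt2 and Slc30a1. It had 103.6, 93.4 and 94.9 CPM in labelled Rbm47-IKO pools 1 to 3 and 93.1, 74.8 and 79.3 CPM in wt pools 1 to 3. The groups were separated only by the small gap between 93.4 and 93.1 CPM. Its log2 fold change of 0.24 (standard error 0.12) did not pass (adjusted p = 0.354, edgeR). Its exons share 316 of 8907 bases with 1110065P20Rik on the other strand. Gpr39, which encodes a zinc-sensing receptor of the cell surface, had 28.1 ± 1.12 CPM (SD, n = 3) against 30.9 ± 3.99 CPM (SD, n = 3) in wt, and did not pass (adjusted p = 0.675, edgeR).

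Slc30a1 (ENSMUSG00000037434, chr1:191906767-191913247, plus strand), which encodes the zinc exporter ZnT1 and shares the MTF1 control of the metallothioneins, showed no shift beyond the spread between pools. It had 50, 51.1 and 39 CPM in labelled Rbm47-IKO pools 1 to 3 and 57.4, 38.7 and 39.2 CPM in wt pools 1 to 3. The highest pool was wt pool 1. The estimate on the log2 scale was 0.051 (standard error 0.19, adjusted p = 0.939, edgeR). Dropping single pools moved that estimate between -0.045 and 0.26. Exons of 1700034H15Rik on the other strand cover 468 of its 5244 counted bases. The difference between the responses of Mt1 and Slc30a1 was not tested.

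Slc30a10 (ENSMUSG00000026614, chr1:185454848-185468762, plus strand), the manganese exporter of the apical membrane, stood lower in all 3 pools labelled Rbm47-IKO than in any wt pool, under the same doubt about the label. It had 25.9, 26.8 and 26.95 CPM in labelled Rbm47-IKO pools 1 to 3 and 77.1, 53.3 and 77.8 CPM in wt pools 1 to 3. The labelled Rbm47-IKO pools lay close together and far below the lowest wt pool. The means were 26.5 ± 0.596 CPM (SD, n = 3) and 69.4 ± 13.9 CPM (SD, n = 3), 2.61 times higher in wt. This is a log2 fold change of -1.39 (SE 0.16, adjusted p = 0.00978, edgeR). Its counted exons share 533 of 5836 bases with the exons of Gm2061 on the other strand, and the strand setting of the counting was not given in the sources used here.

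Slc39a4 (ENSMUSG00000063354, chr15:76612385-76616852, minus strand) encodes ZIP4, the apical zinc importer whose loss in humans causes acrodermatitis enteropathica. It had 253, 263 and 262 CPM in labelled Rbm47-IKO pools 1 to 3 and 252, 342 and 389 CPM in wt pools 1 to 3. The groups overlapped through wt pool 1, which was as low as the labelled Rbm47-IKO pools. Its log2 fold change of -0.34 (standard error 0.16) did not pass (adjusted p = 0.363, edgeR).

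Slc39a5 (ENSMUSG00000039878, chr10:128395934-128401224, minus strand) encodes ZIP5, an importer of the basolateral membrane that faces the blood. It had 229.8, 263 and 221 CPM in labelled Rbm47-IKO pools 1 to 3 and 164, 188 and 192 CPM in wt pools 1 to 3. The groups did not overlap. The log2 fold change of 0.39 (standard error 0.12) did not pass (adjusted p = 0.139, edgeR). Slc39a5 is also strong in pancreas. Pancreatic acinar markers summed to 17.1 CPM in labelled Rbm47-IKO pool 3 and to at most 0.396 CPM in the other 5 pools. Without that pool the log2 fold change of Slc39a5 was 0.44 (adjusted p = 0.199, edgeR), and the part of pancreatic RNA in its level was not tested. Per length, the level of Slc39a4 was 1.48 to 1.95 times that of Slc39a5 in the wt libraries and 0.964 to 1.14 times in the labelled Rbm47-IKO libraries.

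Of the 7 genes, 2 passed an edgeR adjusted p of 0.05, Mt1 higher and Slc30a10 lower, against 2.7% of all genes tested (1.45% higher and 1.25% lower). The pools of 4 did not overlap, Mt1, Mtf1 and Slc39a5 higher and Slc30a10 lower, against 23.3% of all genes tested (11.7% higher and 11.6% lower). The median log2 fold change of the 7 was 0.24, against -0.0059 over all genes. Since the genes were named with this contrast known, nothing further is read from these shares.

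With each pool left out in turn, Mt1 kept a log2 fold change between 2.48 and 3.37 and passed in 3 of 6 fits. It did not pass without labelled Rbm47-IKO pool 1 (adjusted p = 0.0842, edgeR), without labelled Rbm47-IKO pool 2 (0.108) or without wt pool 3 (0.0621). Slc30a10 stayed between -1.54 and -1.29 and also passed in 3 of 6 fits. The same pools mattered, with edgeR adjusted p of 0.0651, 0.0834 and 0.0513. Over all genes, the number called fell to 32, 0 and 11 in those 3 fits. Without the pool of each genotype with the most smooth muscle RNA, a setting added after the data were seen, Mt1 stood at 2.78 on the log2 scale (adjusted p = 0.0332, edgeR) and Slc30a10 had -1.56 (adjusted p = 0.00687, edgeR).

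**Figure D3:**
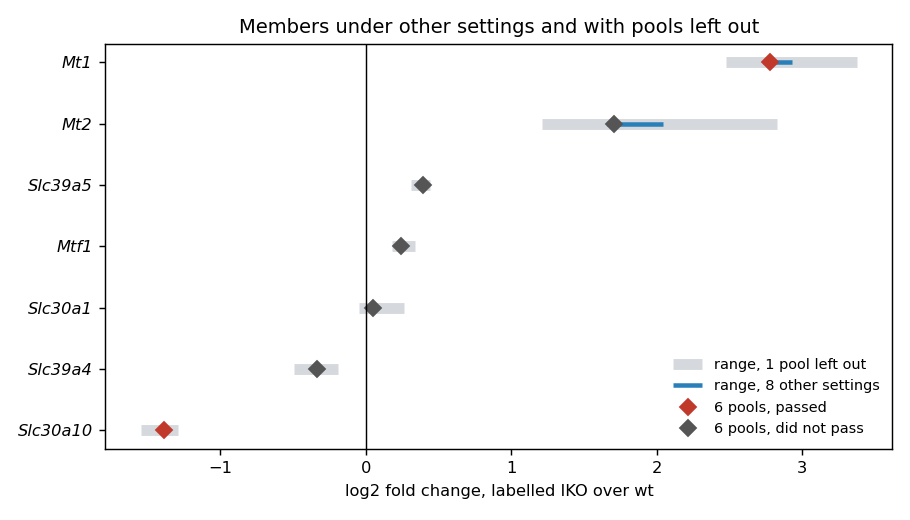
Log2 fold change of the 7 genes, labelled Rbm47-IKO over wt, with all 6 pools (diamonds, red where the edgeR adjusted p was 0.05 or less), over the 6 fits with 1 pool left out (grey bars) and over 8 other settings (blue bars). The bar of Mt2 is the widest, from 1.21 to 2.83, and that of Slc30a1 covers 0.

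The remaining zinc transporters formed the background for these genes. The ZnT (Slc30a) family moves zinc out of the cytosol and the ZIP (Slc39a) family moves it in. Of the other 20 genes in both families, 17 were tested, 2 were lower and 0 were higher at an edgeR adjusted p of 0.05, and the same 2 were those with an unadjusted p under 0.05 (against 2.7% and 16.8% of all genes tested). Their median log2 fold change was 0.0031, and they ranged from -0.86 to 0.19. Slc30a3, Slc30a8 and Slc39a12 were left out by the expression filter, with at most 4 reads in any pool.

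Both transporters that passed were ZIP genes. Slc39a11, which encodes ZIP11, had 28.8, 28 and 22.8 CPM in labelled Rbm47-IKO pools 1 to 3 and 46.9, 49.2 and 48.5 CPM in wt pools 1 to 3. The groups were far apart, with a log2 fold change of -0.86 (SE 0.12, adjusted p = 0.015, edgeR). Slc39a9, which encodes the Golgi and plasma membrane importer ZIP9, had 125, 122 and 121 CPM in labelled Rbm47-IKO pools 1 to 3 and 184, 181 and 219.9 CPM in wt pools 1 to 3. The groups again did not overlap, with a log2 fold change of -0.67 (SE 0.11, adjusted p = 0.028, edgeR). With 1 pool left out, Slc39a11 passed in 3 of 6 fits and Slc39a9 in 2 of 6. The fits in which Slc39a11 failed left out labelled Rbm47-IKO pool 1, labelled Rbm47-IKO pool 2 or wt pool 3, and for Slc39a9 also labelled Rbm47-IKO pool 3. Without the muscle-rich pools the log2 fold change was -0.76 for Slc39a11 (adjusted p = 0.0422, edgeR) and -0.72 for Slc39a9 (adjusted p = 0.0611, edgeR).

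The Slc30a genes of the secretory pathway and granules that are named next did not pass. Slc30a5, a subunit of the complex that loads zinc into alkaline phosphatases, stood at -0.2 on the log2 scale (adjusted p = 0.527, edgeR), and its partner Slc30a6 had 0.02 (adjusted p = 0.968, edgeR). Slc30a4, which fills vesicles, had -0.25 (adjusted p = 0.432, edgeR), and the Golgi transporter Slc30a7 had 0.16 (adjusted p = 0.611, edgeR). Slc30a2, the transporter of zinc-rich Paneth cell granules, had 79.7, 107.7 and 118.6 CPM against 99.5, 84.1 and 87.2 CPM in wt (log2 fold change 0.18, adjusted p = 0.672, edgeR). The 8 Paneth cell markers had log2 fold changes from -1.23 to -0.099, and 0 of them passed with edgeR or with DESeq2, or had an unadjusted p under 0.05. Their summed level was 947, 1086 and 589 CPM in labelled Rbm47-IKO pools 1 to 3 and 2102, 1505 and 576 CPM in wt pools 1 to 3.

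Per length, Mt1 stood first among these genes in both groups. In wt it had 198 ± 119 RPKM (SD, n = 3), with pools from 105 to 332, which overlapped the 113 to 175 RPKM of Slc39a4, the next gene in order. In the labelled Rbm47-IKO libraries Mt1 had 1355 ± 258.5 RPKM (SD, n = 3) and no longer overlapped any of them. Mt2 had 139.6 ± 74.2 RPKM (SD, n = 3) there and overlapped both Slc39a4, at 117 ± 2.43 RPKM, and Slc39a5, at 111.1 ± 10.3 RPKM (SD, n = 3 for both). In wt, Slc39a5 at 84.7 ± 7.13 RPKM followed Slc39a4, and Mt2 at 42.8 ± 40.1 RPKM overlapped Slc30a5 at 44.5 ± 6.06 RPKM (SD, n = 3 for all). The exporters Slc30a10 and Slc30a1 were low on this scale, at 11.9 ± 2.39 and 8.6 ± 2.04 RPKM in wt and at 4.55 ± 0.102 and 8.91 ± 1.27 RPKM in the labelled Rbm47-IKO libraries (SD, n = 3 for all). Their pools overlapped in wt, where Slc30a1 was 0.56 to 0.83 times as high as Slc30a10 within each pool. They did not overlap in the labelled Rbm47-IKO libraries, where Slc30a1 was 1.61 to 2.15 times as high as Slc30a10.

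**Figure D4:**
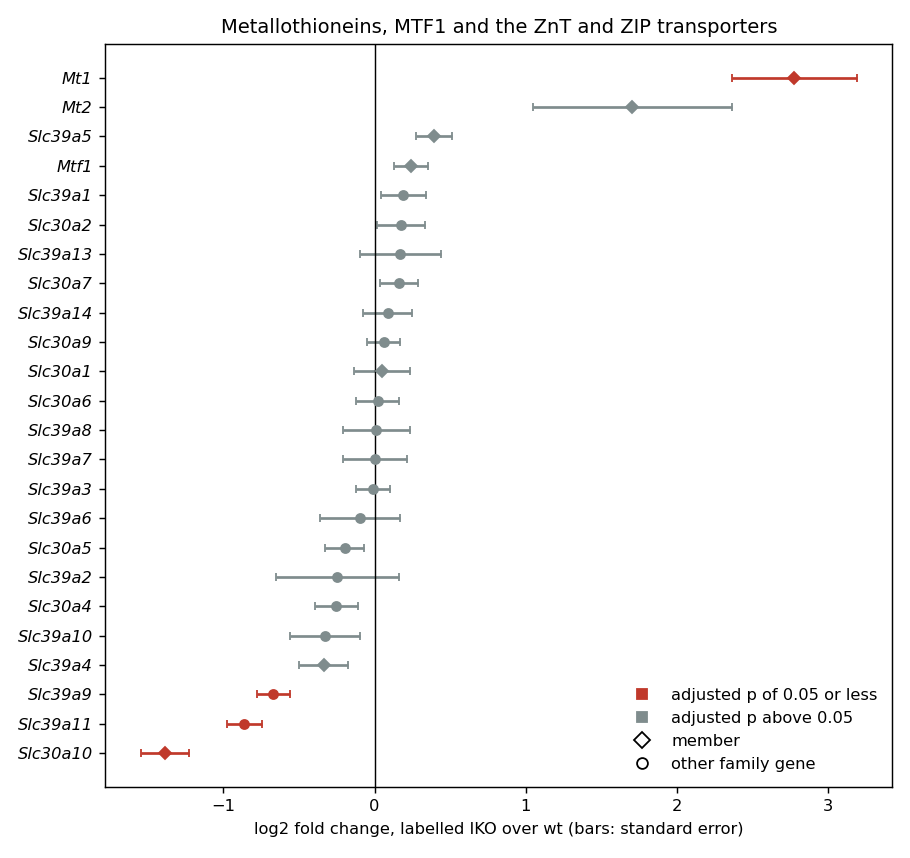
Log2 fold change of labelled Rbm47-IKO over wt, with standard errors, for Mt1, Mt2, Mtf1 and every tested Slc30a and Slc39a gene, ordered by size. Diamonds are the 7 genes described here, circles the other family genes, and red marks an edgeR adjusted p of 0.05 or less. Most transporters lie between -0.34 and 0.39, while Mt1 lies at 2.78 and Slc30a10 at -1.39.

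Genes of metal handling were described from lists chosen with earlier results of these counts known. Some of these lists include genes of the 7 described above. Of 7 MTF1 targets, 1 passed with edgeR (Mt1), 2 with DESeq2 (Mt1 and Gclc) and 4 had an unadjusted p under 0.05 with edgeR, against 2.7%, 7.57% and 16.8% of all genes tested. Their median log2 fold change was 0.65. Mt1, Mt2 and Slc30a1 are on this list and were chosen with this contrast known. Nothing further is therefore read from its shares or its median. Gclc, the catalytic subunit of the enzyme that starts glutathione synthesis, had 202, 208 and 156 CPM in labelled Rbm47-IKO pools 1 to 3 and 133, 80.6 and 63.9 CPM in wt pools 1 to 3. Its log2 fold change of 1.03 did not pass (adjusted p = 0.0956, edgeR), while DESeq2 called it (adjusted p = 0.00127). Slc39a10, which MTF1 represses, stood at -0.33 on the log2 scale (adjusted p = 0.551, edgeR), the lowest of the list.

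Among the 6 genes of manganese handling, Slc30a10 passed with edgeR, lower, against 2.7% of all genes tested. DESeq2 called 2 of them, Slc30a10 and Tmem165, against 7.57%. An unadjusted edgeR p under 0.05 was found for 4, against 16.8%. Slc30a10 is on this list and was chosen with this contrast known, so nothing further is read from these shares. The highest log2 fold change was 0.47 for the Golgi protein gene Tmem165 (adjusted p = 0.0916, edgeR), which DESeq2 called (adjusted p = 0.0222). The manganese and zinc importers Slc39a14 and Slc39a8 had 0.087 and 0.012 (adjusted p = 0.867 and 0.988, edgeR). Of 10 genes of copper handling, 9 were tested and 0 passed with edgeR or with DESeq2, with 2 at an unadjusted p under 0.05 (against 16.8% of all genes tested) and a median of -0.13. They ranged from -0.47 for the copper importer Slc31a1 (adjusted p = 0.41, edgeR) to 0.29 for the mitochondrial chaperone Sco1 (adjusted p = 0.248, edgeR).

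Of 12 zinc enzymes of the enterocyte, 11 were tested, and 1 was higher and 1 lower, against 1.45% and 1.25% of all genes tested. An unadjusted p under 0.05 was found for 4 of them, against 16.8%. The alkaline phosphatase gene Akp3 had 8.93, 8.48 and 24.8 CPM in labelled Rbm47-IKO pools 1 to 3 and 0.941, 2.53 and 2.47 CPM in wt pools 1 to 3, that is 2.82 on the log2 scale (adjusted p = 0.0424, edgeR). No fit that dropped a single pool kept it, and the adjusted p then ran from 0.059 to 0.136 (edgeR). The carbonic anhydrase gene Car2 had 10.5, 10.7 and 10.8 CPM against 21.998, 23.6 and 35 CPM in wt, that is -1.33 on the log2 scale (adjusted p = 0.0168, edgeR), and it passed in 2 of those 6 fits. Alpi, the abundant intestinal alkaline phosphatase, had 1057 ± 50.8 CPM against 1049 ± 219.6 CPM in wt (SD, n = 3 for both). DESeq2 called 4 of these enzymes, Akp3 and Anpep higher and Car2 and Mep1b lower, against 7.57% of all genes tested.

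Lists for the other known inducers of metallothionein genes were described in the same way. Of 8 NRF2 targets, the antioxidant response list, Nqo1 was higher, with 50, 58.1 and 40.6 CPM against 15.1, 21.1 and 14.6 CPM in wt (log2 fold change 1.55, adjusted p = 0.0119, edgeR). Gclm, the regulatory partner of Gclc, was at the other end of that list with -0.49 (adjusted p = 0.0896, edgeR). DESeq2 called 4 of this list, Nqo1, Gclc and G6pdx higher and Gclm lower, and 4 had an unadjusted p under 0.05 with edgeR, against 7.57% and 16.8% of all genes tested. Of 8 acute phase and STAT3 response genes, 6 were tested, and the antimicrobial lectin gene Reg3g was lower with -1.29 (adjusted p = 0.0427, edgeR). The highest of that list was Saa1 with 1.57 (adjusted p = 0.429, edgeR). DESeq2 called 3 of its genes, Bcl3 higher and Reg3b and Reg3g lower, and 4 had an unadjusted p under 0.05 with edgeR, beside the same shares over all genes. Of 8 glucocorticoid response genes and 5 heat shock genes, 0 passed with edgeR, or with DESeq2 where it gave an adjusted p, and at an unadjusted p under 0.05 there were 1 and 0. Their medians were -0.0069 and 0.35. They ranged from -1.36 for Zbtb16 to 0.53 for Per1 and from -0.028 for Dnajb1 to 1.25 for Hspa1a. With 1 pool left out, Nqo1 passed in 3 of 6 fits and Reg3g in 0 of 6.

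**Figure D5:**
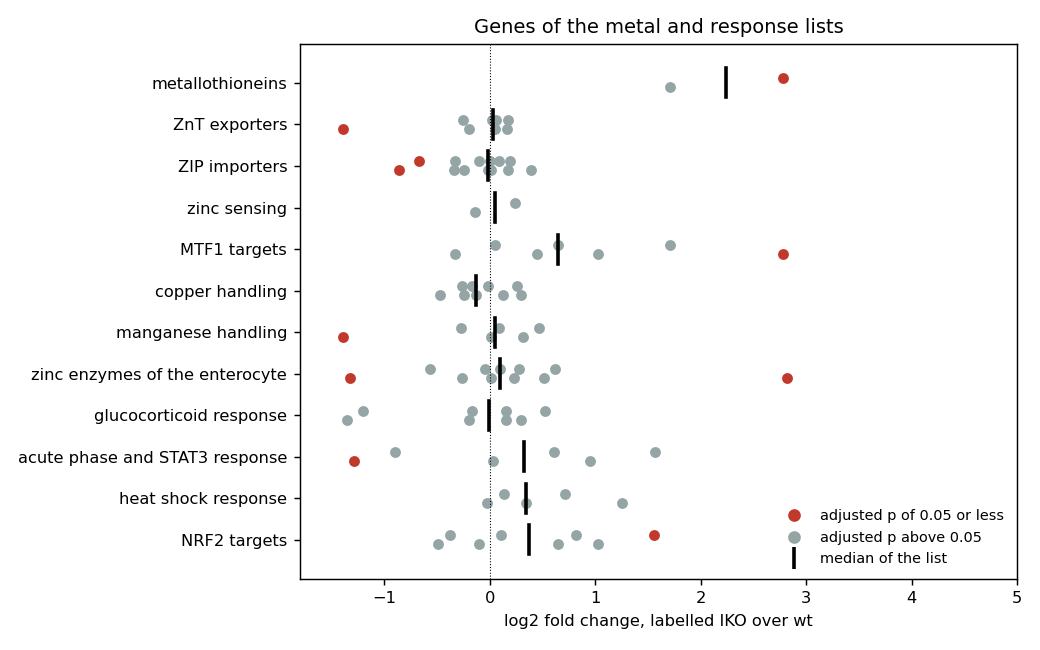
Log2 fold change of labelled Rbm47-IKO over wt for each tested gene (points, red where the edgeR adjusted p was 0.05 or less) of 12 metal and response lists, with the median of each list as a black bar. Metallothioneins have a median of 2.24 from 2 tested genes, and the transporter lists have medians near 0.

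The genes with a pattern most like that of Mt1 were ranked by the root mean square distance between log2 CPM values centred on each gene's mean, over the 6 pools. Mt2 ranked 24 of 16424, at 0.757 log2 units. The nearest was C2cd4a, at 0.245 log2 units, but it had 10 to 22 reads in the labelled Rbm47-IKO libraries and 0 to 4 in wt. Ces2b, a carboxylesterase gene, was next at 0.392 log2 units, with 8.06, 7.34 and 5.57 CPM in labelled Rbm47-IKO pools 1 to 3 and 1.71, 0.975 and 1.10 CPM in wt pools 1 to 3. Gm16867 and the Wnt ligand gene Wnt3a followed at 0.484 and 0.492 log2 units, with no more than 23 reads in any pool. Fabp6, the bile acid binding protein of the ileal enterocyte, came next at 0.494 log2 units, with 31.7, 39.8 and 18.6 CPM against 17.2, 3.98 and 2.55 CPM in wt. As for Mt1 and Mt2, the highest wt library for Fabp6 was wt pool 1, and its log2 fold change of 1.93 did not pass (adjusted p = 0.201, edgeR). Fabp6 was picked for its likeness to Mt1 over the same 6 pools, so such a shared feature is no separate result.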

How the data were processed

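RNA-seq of 6 mucosal pools was analysed, 3 per genotype, grouped by the labels. The submitters' processing notes list STAR 2.5.1a, featureCounts 1.4.6-p5 of Subread and GRCm38, and the strand setting is not given in the sources used here. The authors deposited a raw count, a CPM value (the count scaled to the counted total) and an RPKM value (that CPM per kilobase) for 38561 Ensembl genes in each pool. The deposited CPM and RPKM columns were recomputed from the counts as a check and not used further. Of the genes, 36639 were matched to a GENCODE M21 symbol, and genes without a match held 0.369% of the counts.

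Counts were tested with edgeR 4.0.16 (R 4.3.3): filterByExpr, TMM, the quasi-likelihood test and Benjamini-Hochberg adjustment over all 16425 genes that passed the filter, at 0.05. Standard errors are the log2 fold change divided by the square root of F. CPM and RPKM in the text use TMM library sizes. limma 3.58.1 (voom) and DESeq2 1.42.0, other normalizations and filters, a block on the pool number, and each pool left out served as alternatives. The fit was tested on simulated data, in which the share of false calls was above the nominal level with edgeR and higher still with DESeq2. An exact permutation test of 3 pools against 3 cannot give p below 0.1, and p-values measure the spread between pools, each of several mice.

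The members and lists were chosen with earlier results of these data known. Named genes were the 7 members, Rbm47, the Mt, Slc30a and Slc39a genes, the called and the highest and lowest genes of each metal or response list, and the 5 genes with the pattern nearest Mt1. Fkbp5, Tsc22d3, Sgk1, Klf9, Dusp1, Errfi1, Gclc, G6pdx, Bcl3, Reg3b, Alpi, Anpep, Apoa4, Mep1b, Ghrl, Cck, Gip, Slc51a, Slc51b, Clca1, Fcgbp, Hoxb13, Xist and the genes nearest Slc30a10 fall outside that rule or were singled out after their values were seen. Promoter windows are from RefSeq (GRCm38.p6).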

Additional observations from a re-analysis of the deposited data

How the results depend on the processing

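Direction held for Mt1, Mt2, Mtf1, Slc30a10, Slc39a4 and Slc39a5 in all 8 alternatives and in all 6 fits with a pool left out. Mt1 and Slc30a10 passed in all 8 alternatives, and Mt2 in none of them (lowest adjusted p = 0.144). The sign of Slc30a1 changed with pools left out, over a range of -0.045 to 0.26. The number of genes called was 443 with edgeR and 1243 with DESeq2, and it was between 0 and 431 with 1 pool left out. The fit with 0 calls, without labelled Rbm47-IKO pool 2, had 1729 genes at an unadjusted p under 0.05 with edgeR, and the cause was not tested. With the pool number as a replicate block, 100 genes were called. Deviations of same-numbered pools correlated at 0.408, -0.003 and -0.277, so the numbers were not taken as pairs, and Mt1 (adjusted p = 0.0346) and Slc30a10 (adjusted p = 0.0417) passed with the block while Slc39a9 (0.0859), Slc39a11 (0.053), Akp3 (0.053), Car2 (0.0522), Reg3g (0.0618) and Ghrl (0.0967) did not. Akp3 passed in 6 of the 8 alternatives, so the block was not the only one that ended its call. Depth limits what can be said of Mt3, Mt4 and Slc30a8.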

Other observations

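Slc30a10 was also compared with all other genes by its pattern over the 6 pools, a search added after its values were seen. The nearest gene was Slc17a4, an apical phosphate and urate transporter gene of the intestine, at a root mean square distance of 0.0716 log2 units. It had 22.7, 22.1 and 24.2 CPM in the labelled Rbm47-IKO libraries and 64.2, 44.3 and 59.8 CPM in wt. The microvillus actin-bundling gene Pls1 followed at 0.121 log2 units, with 1170.1, 1199 and 1081 CPM against 2778 to 2909 CPM in wt pools 1 and 3 and 2188 CPM in wt pool 2. A1cf, which encodes an RNA-binding cofactor of apolipoprotein B mRNA editing, was the third at 0.128 log2 units, with 46, 48.4 and 49.7 CPM against 128, 92 and 109.8 CPM. For all 3, as for Slc30a10, the labelled Rbm47-IKO pools lay close together below every wt pool, and wt pool 2 was the lowest wt library. The search picks genes by these same values, so the shared features are no separate result. The likeness is a description over 6 pools that differ by genotype, and no test was run on it.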
